A study of Mus musculus with 28 samples.

Results

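The genes of glycolysis and of the hypoxia response were followed through the reprogramming of mouse embryonic fibroblasts (MEFs) with and without an inhibitor of the p38 kinases. The set holds 33 genes, found by their names among the 50600 genes of the table. All 33 were present, and 31 averaged 1 or more across the libraries and were tested. The other two were Ankrd37, which lay between 0 and 4, and Car9, which was listed at 0 in all 28 libraries. The members were chosen by name for a list that was drawn up with the expression values and fold changes of these same libraries known. Counts of members called are therefore descriptions, each printed beside the share of all tested genes that was called, and nothing about the list is read from them.

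RNA-seq was available for 28 libraries in 14 groups of 2. All cells were wild-type MEFs by the labels; the methods of the study describe them as carrying an Oct4-GFP reporter. The groups were MEFs without treatment, MEFs with the p38 inhibitor SB203580 (p38i), and cells on days 1, 3, 5 and 7 of reprogramming with retroviral Oct4, Klf4 and Sox2 (OKS) in the induction medium iCD1. Reprogramming cells were controls (DMSO in the study's methods), received p38i during induction (p38i), or had received it before induction (pre-p38i). All 24 libraries of reprogramming cells therefore carry the 3 factors, and viral transcripts were not analysed here. Each library is bulk RNA, so that fewer cells of a type and less RNA per cell cannot be told apart.

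Each value is a whole number, and the values of a library add up to between 991287 and 992537. They are read as TPM (transcript abundance scaled to a fixed library total) that the authors rounded down, a scale on which genes are already divided by their length. Read depth is unknown on this scale. Differences were tested on log2(value + 1) with limma over the 13230 genes that averaged 1 or more, and a gene is called where the adjusted p is under 0.05. Because 1 is added to each value, the change of a gene with low values comes out too small. The labels do not say that the 2 libraries of a group came from separate cultures. The p-values therefore rest on a spread between libraries of the same group that may be technical. This spread was pooled over all 14 groups and drawn toward a trend over all tested genes. It is not the spread of the groups compared alone. An exact permutation test of 2 libraries against 2 could not go below 0.333. Lack of overlap between groups was also part of the rule for naming genes, so it is given below as description only. The share of all tested genes without overlap was not computed.

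Glycolysis splits glucose into pyruvate in the cytosol, and cells that run it fast reduce much of that pyruvate to lactate and export it. When oxygen is short, the transcription factor HIF-1 is no longer hydroxylated and degraded, and it raises the transcription of glucose transporters, most glycolytic enzymes, Ldha and Pdk1, together with genes for blood vessel growth, collagen hydroxylation and mitophagy. Pluripotent cells are known for high glycolysis, and a rise of glycolytic genes is a known feature of reprogramming. Several steps have more than 1 gene (Hk1 and Hk2, or Pfkl, Pfkm and Pfkp), and these paralogs are given separately below.

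HIF-1 binds DNA at a core of 5 bases, which reads ACGTG at many known sites. At others the core is GCGTG. Upstream sequence of 4 members is shown because the day 7 differences described below turn on these genes: lactate export (Slc16a3), lactate formation (Ldha), mitophagy (Bnip3) and collagen hydroxylation (P4ha2). The sequences come from RefSeq for GRCm38.p6, run 5′ to 3′ on the strand of the gene, and end at the RefSeq start, except that bases inside exons annotated for the gene were left out. Capitals mark either core on the strand shown or on the other strand, where the first reads CACGT from left to right and the second, on the same strand, reads CACGC instead. The E-box letters CACGTG hold the first core on both strands, overlapping, and count as 2 matches.
Slc16a3 (chr11:120948817-120949052, plus strand): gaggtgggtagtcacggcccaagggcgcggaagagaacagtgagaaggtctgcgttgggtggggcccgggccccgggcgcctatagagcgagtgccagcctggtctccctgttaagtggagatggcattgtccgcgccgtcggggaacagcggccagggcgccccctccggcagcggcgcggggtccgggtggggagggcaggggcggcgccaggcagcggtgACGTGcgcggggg
Ldha (chr7:46845554-46845803, plus strand): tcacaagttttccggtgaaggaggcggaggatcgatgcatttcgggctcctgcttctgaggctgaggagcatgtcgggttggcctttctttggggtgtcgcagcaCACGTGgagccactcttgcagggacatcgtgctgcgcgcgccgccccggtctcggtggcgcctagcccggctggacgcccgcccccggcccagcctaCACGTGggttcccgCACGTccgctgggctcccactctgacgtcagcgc
Bnip3 (chr7:138909520-138909756, minus strand): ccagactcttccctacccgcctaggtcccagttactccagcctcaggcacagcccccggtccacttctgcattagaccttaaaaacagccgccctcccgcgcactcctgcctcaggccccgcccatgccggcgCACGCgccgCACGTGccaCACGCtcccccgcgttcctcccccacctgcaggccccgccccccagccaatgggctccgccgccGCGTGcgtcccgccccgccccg
P4ha2 (chr11:54100674-54100923, plus strand): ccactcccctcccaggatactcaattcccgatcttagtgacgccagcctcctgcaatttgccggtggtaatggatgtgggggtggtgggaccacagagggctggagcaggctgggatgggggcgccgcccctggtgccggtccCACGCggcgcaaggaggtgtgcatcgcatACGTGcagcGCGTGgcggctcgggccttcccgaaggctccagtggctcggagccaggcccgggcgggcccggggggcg
The printed Slc16a3 stretch held 1 match, that of Ldha 5, that of Bnip3 5 and that of P4ha2 3. The files place Slc16a3 at chr11:120948480-120960868, Ldha at chr7:46841475-46855627, Bnip3 at chr7:138890836-138909519 and P4ha2 at chr11:54100095-54131665. In GENCODE M21 the printed stretches of Slc16a3, Ldha and P4ha2 lie inside the annotated gene but in none of its exons, and that of Bnip3 lies upstream of the gene. Of the 33 members 32 had an entry in the RefSeq table, and Ndrg1 had none. Over their 49 windows of 250 bases upstream of a start, ACGTG was found in 44.9%, GCGTG in 51.0% and either in 75.5%. Over all 32851 windows of the table the shares were 16.6%, 28.2% and 38.6%. Some windows of 1 gene overlap, as in Eno1, so a match can be counted more than once. By gene, either core was found in 90.6% of the 32 members and in 41.5% of all 27025 genes. The list was made of glycolysis and hypoxia genes, so a higher share is no test of it. The members' windows also had more G and C, with a median of 60.4% against 52.4%, and the part of base composition in the difference was not tested. A match is a run of 5 letters and not a measured binding site.

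In MEFs before induction, 10 members were lower with the inhibitor, against 8.15% of all tested genes, and 1 was higher, against 9.73%. In either direction 17.9% of all tested genes were called. The median log2 fold change was −0.13 over the 31 tested members and 0 over all tested genes. The genes with the largest differences were Slc16a3, Ddit4, Vegfa and Ndrg1. Slc16a3 encodes the lactate exporter MCT4 and stood at 29 and 34 in untreated MEFs and at 8 and 9 with p38i. The groups did not overlap, and the log2 fold change was −1.77 ± 0.35 (SE), with an adjusted p of 0.0012. Ddit4, which encodes an inhibitor of mTORC1, stood at 85 and 92 without and at 29 and 26 with p38i, a log2 fold change of −1.65 ± 0.08 (adjusted p = 4.6e-11). Vegfa, the growth factor for blood vessels, stood at 57 and 62 without and at 25 and 26 with p38i (log2 fold change −1.19 ± 0.14, adjusted p = 4.6e-06). Ndrg1, a stress response gene, stood at 16 and 17 against 7 and 8 (log2 fold change −1.04 ± 0.22, adjusted p = 0.0019). All 4 were therefore lower with p38i in each library.

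Other members that fell in p38i-treated MEFs were Hk2, the inducible hexokinase, Slc2a1, the glucose transporter GLUT1, the collagen prolyl hydroxylase P4ha1, and the enzymes Pkm, Pgam1 and Ldha. Their log2 fold changes lay between −0.84 for Hk2 and −0.12 for Ldha. Pfkm rose by 0.27 on the log2 scale. Not every hypoxia gene was lower: Adm, which encodes the vasodilator peptide adrenomedullin, stood at 61 and 59 without and at 86 and 81 with p38i, although its adjusted p of 0.070 missed the threshold. The sum of the 16 enzyme genes was 14784 and 13840 in untreated and 13884 and 13583 in p38i-treated MEFs, so that the groups overlapped. With p38i the 6 fibroblast markers, all in the table, summed to between 4014 and 4029, against 6921 to 7163 without, while the 7 pluripotent and the 6 erythroid markers were listed at 0 in both groups. The 6 epithelial markers summed to at most 10 and the 5 endothelial markers to at most 4. Lum, one of the fibroblast markers, was listed at 0 in untreated MEFs. The 9 macrophage markers summed to 184 to 190 with p38i, with Marco and Ptprc at 0, and to 266 to 273 without, with Marco at 0. The part of cell makeup in these differences was not tested. The calls of Pfkm, Pgam1 and Ldha were lost with quantile normalization, without any single library in the case of Pgam1 and Ldha (adjusted p up to 0.16 and 0.21), and without any but untreated replicate 1 in that of Pfkm (up to 0.33). The call of Slc16a3 was lost with a pseudocount of 0.1 (0.13).

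Between untreated MEFs and day 1 of the control course, 10 members rose, against 36.6% of all tested genes, and 13 fell, against 18.9%, with 55.5% called in either direction. The labels and the study's methods differ on the medium of the MEFs, so that medium and factors cannot be told apart in this step. The glucose transporter Slc2a1 went from 81 and 76 in MEFs to 29 and 27 on day 1, a log2 fold change of −1.46 ± 0.09 (adjusted p = 2.1e-11). Slc16a3 went from 29 and 34 to 6 and 5 (log2 fold change −2.32 ± 0.35), and Vegfa from 57 and 62 to 26 and 28 (−1.11 ± 0.14). Adm went from 61 and 59 to 22 and 20 (−1.47 ± 0.17), and P4ha2, a collagen prolyl hydroxylase, from 90 and 92 to 36 and 33 (−1.38 ± 0.14). In each of these genes day 1 lay below MEFs without overlap.

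Of the 10 genes that rose in the same step, 5 encode enzymes of upper glycolysis. Pfkp, the platelet-type phosphofructokinase, stood at 31 and 35 in MEFs and at 114 and 105 on day 1 (log2 fold change 1.70 ± 0.08, adjusted p = 5.1e-13). Hk1, the constitutive hexokinase, stood at 60 and 53 and then at 118 and 110 (1.00 ± 0.07), and Gpi1, the glucose-6-phosphate isomerase, at 307 and 297 and then at 604 and 586 (0.98 ± 0.06). Kdm3a, a histone demethylase known as a hypoxia target, stood at 10 and 15 and then at 27 and 31 (1.17 ± 0.16). The liver-type Pfkl went the other way, from 57 in both libraries to 39 and 37 (−0.57 ± 0.08). Pfkl thus made up 51.4% of the summed phosphofructokinase TPM in MEFs and 21.2% on day 1, and Pfkp 29.7% and 61.2%. The median log2 fold change of all tested genes was 0.14 in this step and −0.07 with quantile normalization, and with the latter Aldoa, Egln3 and Mxi1 were no longer called. The call of Kdm3a was lost when only these 2 groups were fitted (adjusted p = 0.056).

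Between day 1 and day 7 of the control course, 9 members rose, against 28.4% of all tested genes, and 15 fell, against 26.1%, with 54.6% called in either direction. Of the 16 enzyme genes 8 fell and 3 rose. Ldha, lactate dehydrogenase A, went from 825 and 820 on day 1 to 486 in both day 3 libraries, then to 448 and 428 (day 5), and reached 536 and 526 on day 7, a log2 fold change of −0.63 ± 0.04 from day 1 to day 7 (adjusted p = 6.8e-11). Pgam1, phosphoglycerate mutase, went from 869 and 866 on day 1 to 550 and 524 on day 7 (−0.69 ± 0.05). Pkm, Aldoa, Eno1, Pgk1 and Gapdh fell as well, by 0.34 to 0.46 on the log2 scale. The 16 enzyme genes summed to 13363 ± 249 (SD, n = 2) at day 1, to 9853.5 ± 156 at day 5 and to 10400.5 ± 134 at day 7, which was 1.04% of a full TPM total.

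Pdk1, Ddit4, Kdm3a and Egln3, which have regulatory roles, rose over the same days, and so did Slc2a1, Hk2, Pfkl, Aldoc and Mxi1. Slc2a1 went from 29 and 27 on day 1 to 36 and 31, then 67 and 62, and reached 86 and 85 on day 7 (log2 fold change 1.58 ± 0.09, adjusted p = 8.4e-12). Pdk1, the kinase that switches off pyruvate dehydrogenase, went from 6 in both libraries to 23 and 19 (1.65 ± 0.15). Ddit4 went from 55 and 51 to 135 and 124 (1.27 ± 0.08), while Kdm3a and the HIF prolyl hydroxylase Egln3 rose by 0.72 and 0.61 on the log2 scale. Aldoc, the brain-type aldolase, was listed at 0 in MEFs and stood at 3 and 2 on day 1 and at 18 and 14 on day 7 (2.28 ± 0.30), which was 1.70% of the aldolase sum. Vegfa, Adm and P4ha2 fell further, to 5 in both libraries, to 8 and 7, and to 17 and 15 on day 7. Slc16a3 was listed at 0 in both control libraries of day 5 and stood at 1 in both of day 7. From day 1 to day 7 of this course the fibroblast markers summed to 3244 to 3432 and then 1089 to 1150, none at 0. The epithelial markers summed to 23 to 25 and then 461 to 491, and the pluripotent markers to 0 to 1, with 6 of 7 at 0 in both libraries, and then 74 to 85. The macrophage markers summed to 239 to 246 and then 225 to 237, the endothelial markers to 24 to 25 and then 61, and the erythroid markers to at most 2. The part of these cell types in the changes of the members was not tested.

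**Figure D1:**
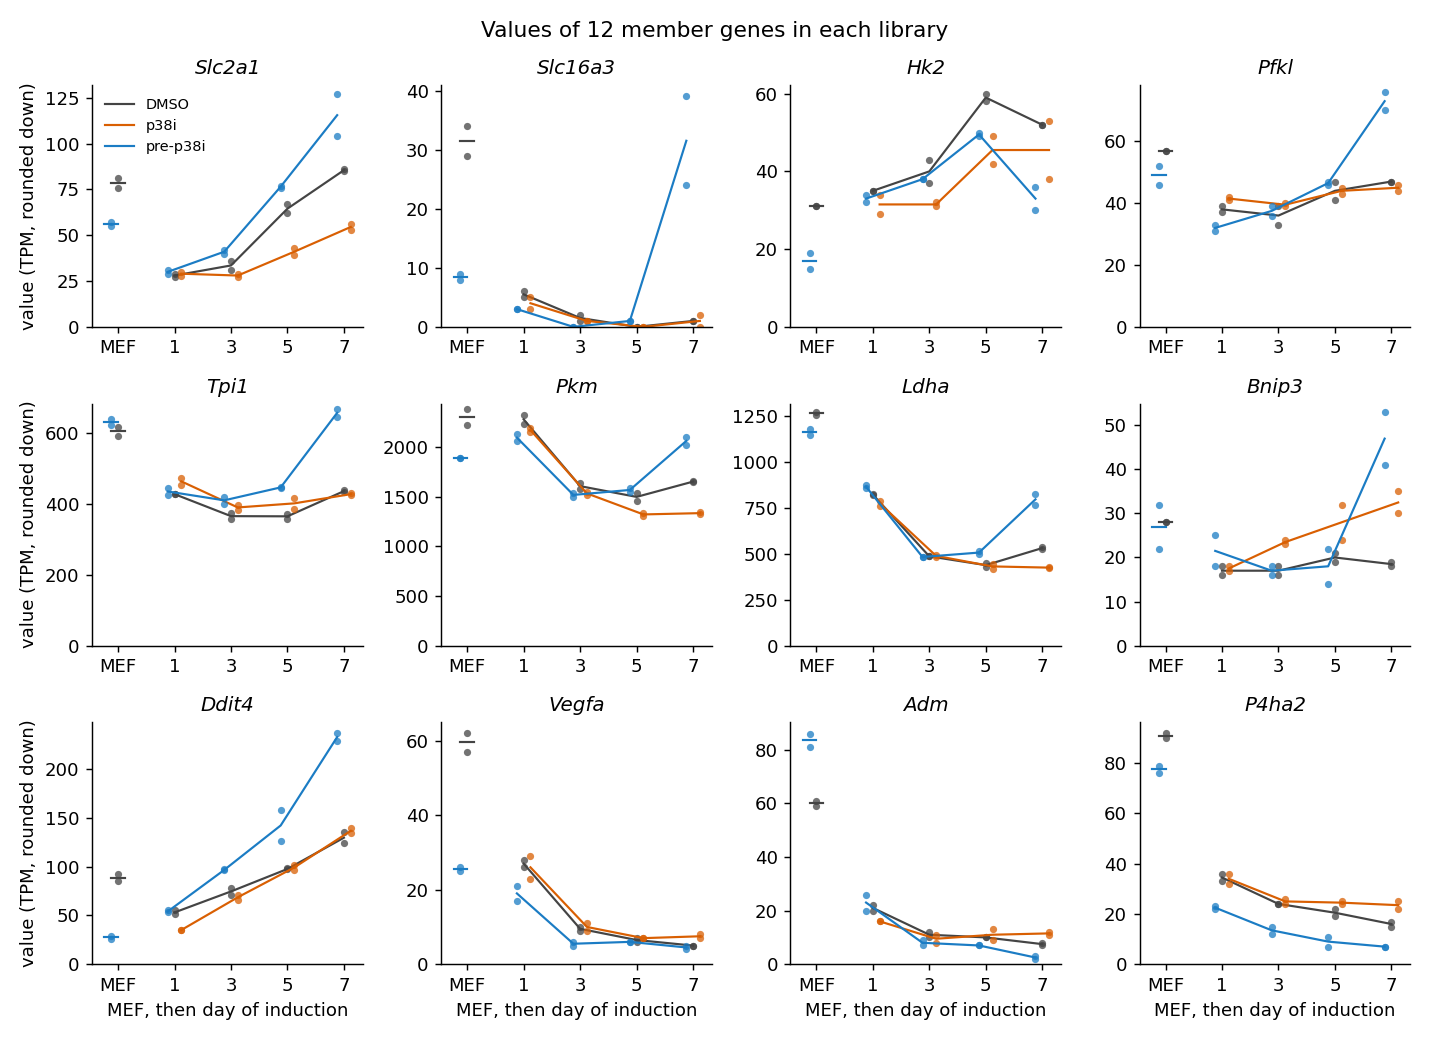
Values of 12 members (TPM rounded down, linear axis from 0) in MEFs and on days 1, 3, 5 and 7, with 1 point per library and lines through the means of 2 libraries; dark grey is the DMSO control, orange p38i and blue pre-p38i, and the blue points at MEF are p38i-treated MEFs. Slc16a3 in pre-p38i stands at 39 and 24 on day 7 against 1 in both controls, while P4ha2 in pre-p38i lies below the control on each day.

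Against controls of the same day, fewest members of pre-p38i cells were called on day 1 and most on day 7, and the same held for all tested genes. On day 1 no member was higher and 3 were lower, where 5.4% and 6.24% of all tested genes were (11.6% in either direction). Day 3 had 4 higher and 5 lower members, beside 13.8% and 6.87% of all genes (20.6%), and with quantile normalization 2 higher and 6 lower. Day 5 had 7 higher and 3 lower, beside 14.3% and 11.3% (25.6%). Day 7 had 15 higher and 5 lower, beside 15.4% and 14.5% (29.9%), and a median log2 fold change of 0.20 over the members and 0.05 over all tested genes.

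Among the members, the largest log2 fold change of day 7 was in the RNA of Slc16a3, a gene of lactate export. In pre-p38i, Slc16a3 reached 39 and 24, and both controls had 1, a log2 fold change of 3.98 ± 0.35 (adjusted p = 4.8e-08). It had stood at 3 in both pre-p38i libraries on day 1, at 0 on day 3 and at 1 on day 5, so the day 7 value was reached within the last interval sampled. At 31.5 on average it equalled the mean of untreated MEFs, which was also 31.5. Slc16a3 was 53.6% ± 6.5 (SD, n = 2) of the sum of Slc16a1 and Slc16a3 in pre-p38i on day 7, 4.0% in controls, and 53.0% ± 6.6 in untreated MEFs. For Slc16a1, the lactate transporter MCT1, pre-p38i had 28 and 25 and both controls 24, with an adjusted p of 0.42. The calls of Slc16a3 on days 3 and 5 rest on values of 2 or less and were lost when single libraries were left out (adjusted p up to 0.14 and 0.13).

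RNA of the glucose transporter was higher from day 3. On day 7 its gene Slc2a1 read 127 and 104 in pre-p38i, and 86 and 85 in controls, without overlap (log2 fold change 0.42 ± 0.09, adjusted p = 0.0011). On days 3 and 5 it was 42 and 40 against 36 and 31, and 77 and 76 against 67 and 62. The calls of days 3 and 5 were lost with quantile normalization (adjusted p = 0.12 and 0.11). They were also lost without single libraries, any but control replicate 1 on day 3 and any at all on day 5 (up to 0.25 on each).

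Of the 16 enzyme genes, 9 rose and 2 fell in pre-p38i on day 7, beside 15.4% and 14.5% of all tested genes. Tpi1, triosephosphate isomerase, stood at 645 and 666 against 433 and 437 (log2 fold change 0.59 ± 0.04, adjusted p = 4.0e-09). Its earlier log2 fold changes, 0.17 for day 3 and 0.29 for day 5, were called too, the first not without replicate 2 of either group (up to 0.10). Ldha stood at 828 and 765 against 536 and 526 (0.58 ± 0.04, adjusted p = 1.6e-09). Aldoa, the main aldolase, stood at 1229 and 1170 against 924 and 921 (0.38 ± 0.04), and Pkm, pyruvate kinase, at 2107 and 2024 against 1659 and 1651 (0.32 ± 0.04). In these 4 genes every pre-p38i library lay above every control. Gapdh, Pgk1 and Eno1 rose by 0.20 to 0.23 on the log2 scale. Aldoc stood at 48 and 40 against 18 and 14 (1.41 ± 0.30, adjusted p = 0.0013), a call that was lost with a pseudocount of 0.1 (0.11).

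Within the upper pathway the paralogs moved apart. On day 7 Pfkl had 76 and 70 in pre-p38i where both controls had 47 (log2 fold change 0.62 ± 0.08, adjusted p = 8.3e-06), while Pfkp stood at 70 and 62 against 78 and 82 (−0.28 ± 0.08, adjusted p = 0.014). Pfkl was 42.3% ± 0.20 (SD, n = 2) of the phosphofructokinase sum in pre-p38i, 28.9% ± 0.13 in controls and 24.3% ± 0.58 in p38i. Hk2 stood at 36 and 30 against 52 in both controls (−0.65 ± 0.13, adjusted p = 0.00081), and Hk1 at 106 and 105 against 118 and 115 (−0.14 ± 0.07, adjusted p = 0.11). Hk2 was thus lower while Ldha and Pfkl were higher, and the part of HIF-1 in these differences was not tested. Pfkp was no longer called without control replicate 2 or without pre-p38i replicate 2 (adjusted p up to 0.17), Gapdh without control replicate 2 or pre-p38i replicate 1 (up to 0.14) and Eno1 without control replicate 1 or pre-p38i replicate 1 (up to 0.087). When the 2 groups were fitted alone, Slc2a1, Hk2, Pfkp, Gapdh, Pgk1 and Eno1 lost their calls (adjusted p between 0.061 and 0.13).

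The sum of the 16 enzymes in pre-p38i on day 7 was 12763 and 12078, above the 10495 and 10306 of the controls and below the 14784 and 13840 of untreated MEFs. On days 1, 3 and 5 the pre-p38i sums were 12730 and 13150, 9796 and 9642, and 9972 and 10010. The controls of these days stood at 13539 and 13187, 10555 and 9988, and 9743 and 9964. On day 3 both pre-p38i libraries lay below both controls. The nearest libraries were close on day 1, at 13150 in pre-p38i and 13187 in the control, and on day 5, at 9972 and 9964. No order is read from these 2 days, and no test was run on the sums. Gapdh, with 3413 to 5652, was the largest part of each sum.

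**Figure D2:**
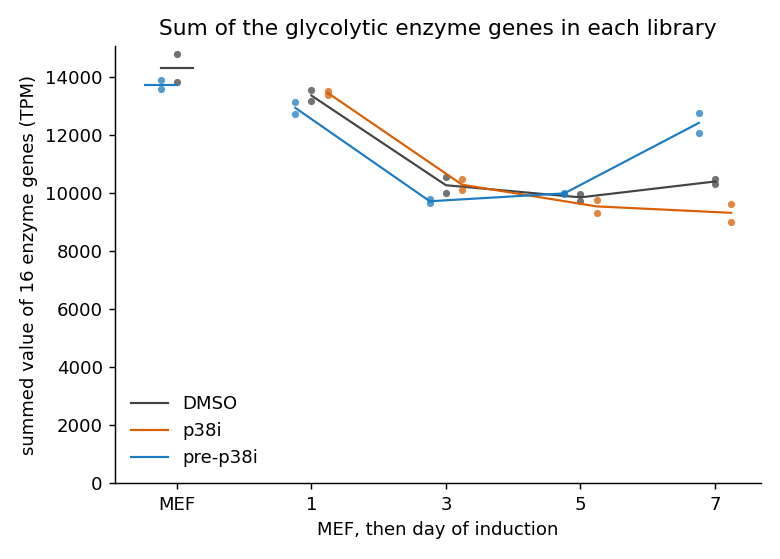
Sum of the 16 glycolytic enzyme genes (TPM, axis from 0) in each library of MEFs and of days 1 to 7, with 1 point per library and lines through the means of 2; dark grey is the DMSO control, orange p38i and blue pre-p38i, with blue at MEF for p38i-treated MEFs. Pre-p38i stands at 12763 and 12078 on day 7, above the controls at 10495 and 10306 and p38i at 9630 and 9011.

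**Figure D3:**
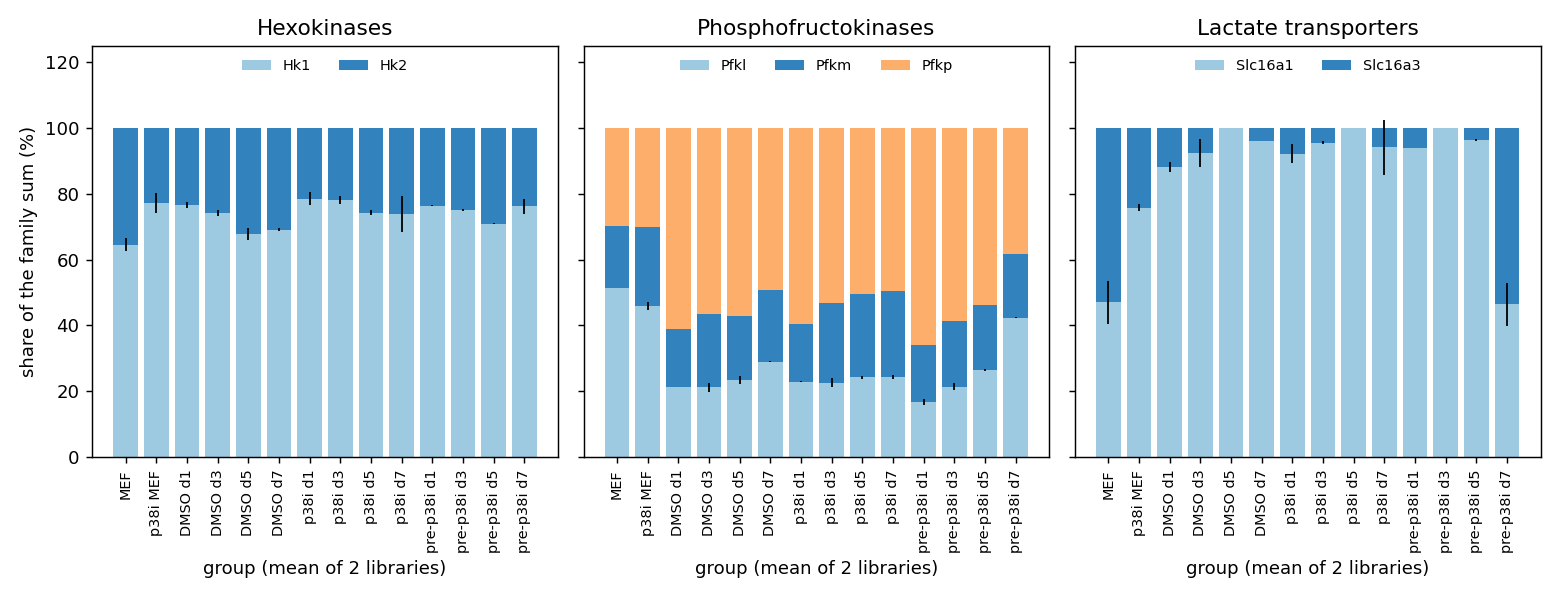
Mean share (%) of each paralog in the sum of its family for hexokinases, phosphofructokinases and lactate transporters in the 14 groups, with the SD of the lowest segment over 2 libraries as a bar. Pfkl takes 51.4% in untreated MEFs, 28.9% in controls of day 7 and 42.3% in pre-p38i of day 7.

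Among the 11 tested genes of the wider hypoxia response, 4 rose and 3 fell in pre-p38i on day 7, beside 15.4% and 14.5% of all tested genes. Bnip3, a mitophagy receptor, stood at 53 and 41 against 18 and 19 in controls (log2 fold change 1.29 ± 0.20, adjusted p = 4.8e-05), and on days 1, 3 and 5 it was not called. Ddit4 stood at 237 and 228 against 135 and 124 (0.84 ± 0.08, adjusted p = 2.6e-07) and was also higher on day 3 (96 and 97 against 71 and 78) and day 5 (158 and 126 against 98 and 97). Egln3 stood at 21 and 20 against 13 and 14 (0.57 ± 0.14), and Kdm3a at 74 and 63 against 51 and 46 (0.49 ± 0.16, adjusted p = 0.023). The values of these 4 called genes did not overlap between the groups on day 7, which is a description and not a further test. The call of Kdm3a was lost without control replicate 2 or pre-p38i replicate 1 (adjusted p up to 0.18) and when the 2 groups were fitted alone (0.096), and that of Ddit4 on day 3 without control replicate 1 (0.058).

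The genes that fell on day 7 were P4ha2, P4ha1 and Adm. On day 7 both pre-p38i libraries had P4ha2 at 7 and the controls at 17 and 15 (log2 fold change −1.08 ± 0.14, adjusted p = 6.2e-06). It was lower at each time sampled: 22 and 23 against 36 and 33, 12 and 15 against 24 in both, and 11 and 7 against 22 and 19 on days 1, 3 and 5. P4ha1 stood at 34 and 29 against 39 and 45 on day 7 (−0.40 ± 0.08) and was called on day 3 and on day 5 as well. Adm stood at 2 and 3 against 8 and 7 (−1.29 ± 0.17, adjusted p = 1.2e-05), a call that was lost when only the 2 groups were fitted (0.051). Vegfa stood at 5 and 4 against 5 in both (−0.13 ± 0.14, adjusted p = 0.52), although it had been lower on day 1 (17 and 21 against 26 and 28) and day 3 (6 and 5 against 9 and 10). The call of P4ha2 on day 1 was lost without control or pre-p38i replicate 1 (adjusted p up to 0.075), that of Vegfa on day 1 without either control or pre-p38i replicate 1 (up to 0.24), and that of P4ha1 on day 3 without replicate 2 of either group (up to 0.094).

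Markers of cell identity differed between the same libraries. On day 7 the 6 fibroblast markers, all detected, summed to 580 to 619 in pre-p38i and to 1089 to 1150 in controls. The 7 pluripotent markers, none of them at 0, summed to 131 to 136 against 74 to 85, and the 6 epithelial markers to 909 to 949 against 461 to 491. The 9 macrophage markers summed to 39 to 49 in pre-p38i, with Csf1r and Ptprc at 0, and to 225 to 237 in controls. The 5 endothelial markers summed to 62 to 66 with Cdh5 and Tie1 at 0 in pre-p38i, and to 61 in both controls with Tie1 at 0. The 6 erythroid markers summed to at most 4 in either group. The part of these markers' cell types in the differences of the members was not tested.

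With p38i present during induction, more members were called against controls on days 5 and 7 than on days 1 and 3. The same held for all tested genes. Day 1 had no higher and 3 lower members (Ddit4, Kdm3a and P4ha1), beside 3.47% and 12.6% of all tested genes (16.1% in either direction). Day 3 had 1 higher and 2 lower, beside 5.22% and 16.2% (21.4%). Day 5 had 3 higher and 8 lower, beside 7.87% and 18.7% (26.6%), and day 7 had 6 of each, beside 16.5% and 17.6% (34.1%). In p38i, the median log2 fold change of all tested genes was −0.08, −0.08 and −0.08 on days 1, 3 and 5, and 0.01, 0.04 and 0.03 with quantile normalization. The share of calls that were higher went from 21.6% to 41.1%, from 24.4% to 50% and from 29.6% to 52.7%. Under it day 1 had 0 higher and 2 lower members, day 3 had 2 of each, day 5 had 5 higher and 6 lower, and day 7 had 7 higher and 6 lower.

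RNA of both plasma membrane transporters that were well expressed fell on day 7. In p38i Slc2a1 had 53 and 56, in controls 86 and 85 (log2 fold change −0.64 ± 0.09, adjusted p = 1.3e-05), and on day 5 it had stood at 39 and 43 against 67 and 62 (−0.64 ± 0.09). Slc16a1 stood at 17 and 15 against 24 in both (−0.56 ± 0.12, adjusted p = 0.0010). Slc16a3 stood at 0 and 2 against 1 in both, values too low to compare. Among the enzymes, Eno1, Pgk1, Ldha and Pkm fell by 0.53, 0.35, 0.32 and 0.31 on the log2 scale. Ldha stood at 427 and 422 against 536 and 526, and Pkm at 1348 and 1325 against 1659 and 1651, so these groups did not overlap. Tpi1 stood at 423 and 430 against 433 and 437 (−0.03 ± 0.04, adjusted p = 0.66) and Aldoa at 898 and 883 against 924 and 921 (−0.05 ± 0.04, adjusted p = 0.36). Pfkm and Gpi1 rose by 0.44 and 0.19. The enzyme sum was 9630 and 9011 against 10495 and 10306.

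In the wider hypoxia response 4 of 11 tested genes rose on day 7 and none fell, beside 16.5% and 17.6% of all tested genes. Bnip3 stood at 30 and 35 against 18 and 19 (log2 fold change 0.78 ± 0.20, adjusted p = 0.0043). P4ha2 stood at 22 and 25 against 17 and 15 (0.53 ± 0.14), Adm at 12 and 11 against 8 and 7 (0.56 ± 0.17), and Vegfa at 8 and 7 against 5 in both (0.50 ± 0.14). Every p38i library lay above every control in these 4 called genes, which is a description and not a further test. Earlier in the course Egln3 and Kdm3a had been lower. Egln3 stood at 6 and 9 against 15 and 13 on day 3 and at 11 and 10 against 19 and 17 on day 5. Kdm3a stood at 17 and 19 against 27 and 31 on day 1, a call lost without control replicate 2 or p38i replicate 1 (adjusted p up to 0.063). Aldoc stood at 12 and 15 against 8 and 4 on day 3 (1.10 ± 0.30), a call lost with a pseudocount of 0.1, with only the groups compared, and without replicate 2 of either group (adjusted p up to 0.21).

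The calls of Gpi1, P4ha2, Vegfa and Adm on day 7 were lost when only the 2 groups were fitted (adjusted p between 0.051 and 0.092), and that of Bnip3 was lost without p38i replicate 2 (0.051). Without single libraries Gpi1 reached 0.18 (without either control or p38i replicate 1), P4ha2 0.069 (without replicate 2 of either group), Vegfa 0.082 (without p38i replicate 1) and Adm 0.12 (without control replicate 2 or p38i replicate 1). On day 7 the 6 fibroblast markers summed to 1260 to 1296 in p38i, and the 7 pluripotent markers to 8 to 10, with Esrrb, Dppa5a, Utf1, Tdgf1 and Dppa3 at 0. The epithelial markers summed to 201 to 220, none at 0, the macrophage markers to 191 to 227 with Ptprc at 0, the endothelial markers to 63 to 69 with Pecam1, Cdh5 and Tie1 at 0, and the erythroid markers to 1. Their part in these differences was not tested.

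**Figure D4:**
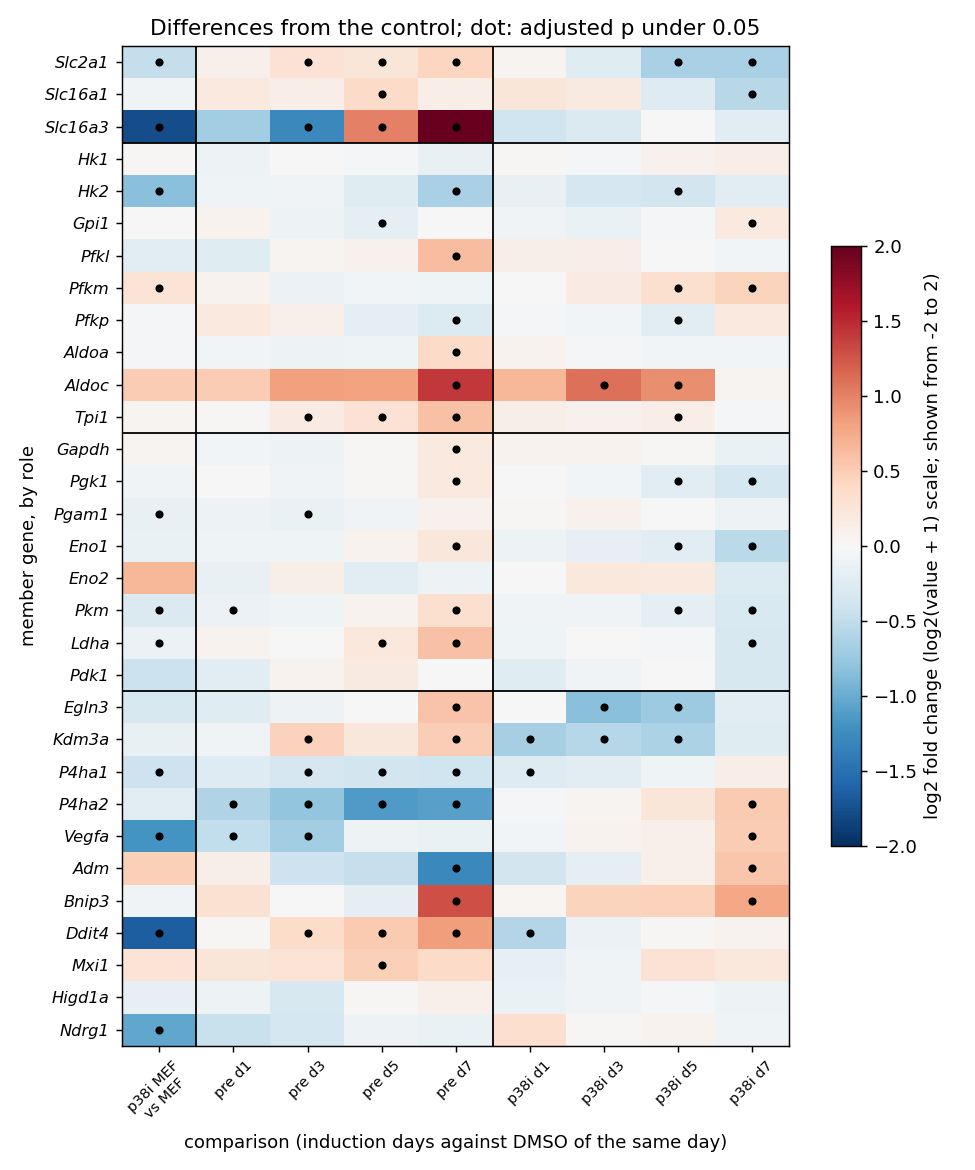
Log2 fold change (log2(value + 1) scale, color from −2 to 2) of the 31 tested members in 9 comparisons with untreated MEFs or the control of the same day, ordered by role; a dot marks an adjusted p under 0.05. The pre-p38i day 7 column holds 15 higher and 5 lower calls, and Slc16a3 there, at 3.98, lies beyond the color scale.

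**Figure D5:**
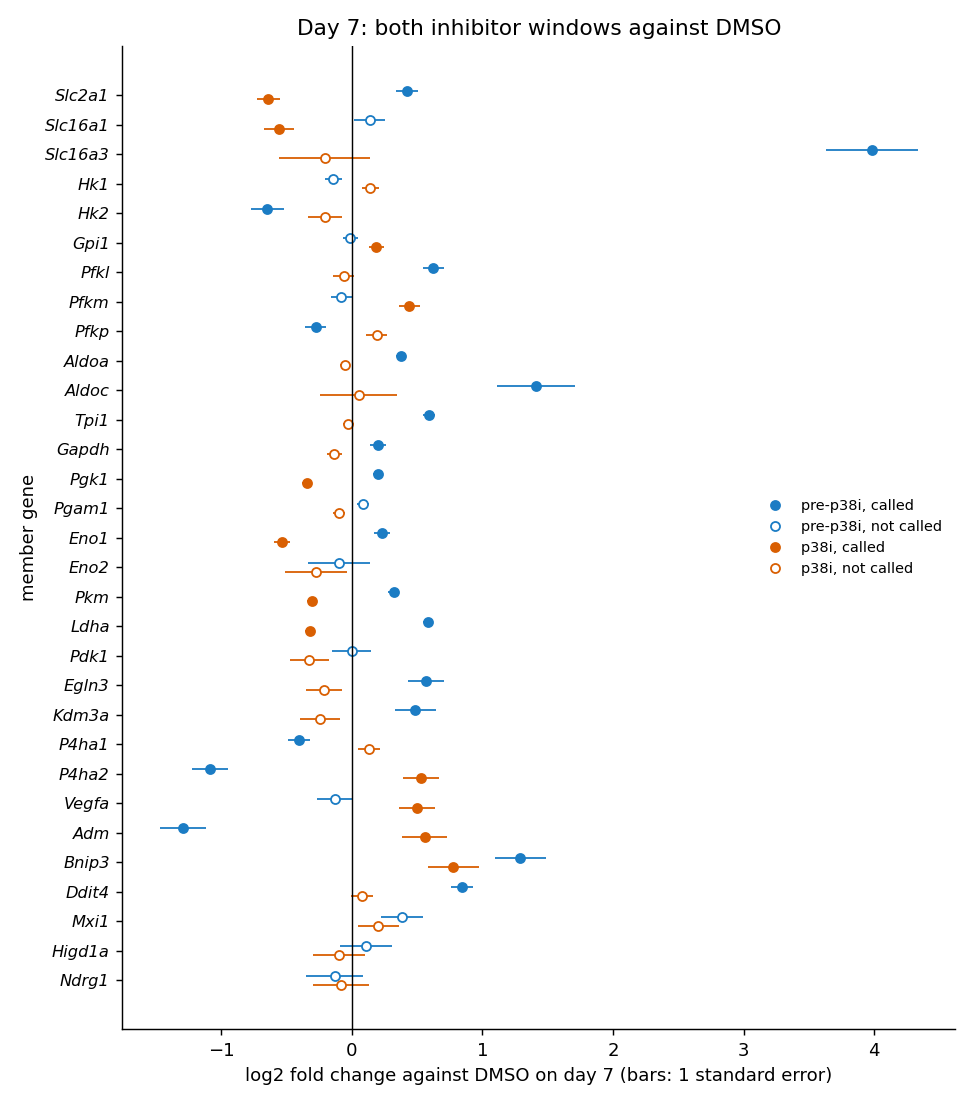
Log2 fold change against controls on day 7 for the 31 tested members, with bars of 1 standard error; blue is pre-p38i, orange p38i, and filled points are called. Slc2a1, Ldha, Pkm, Pgk1 and Eno1 lie above 0 in pre-p38i and below it in p38i, and P4ha2 and Adm the other way round.

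In the direct comparison of the inhibitor windows, the most members and the most of all tested genes were called on day 7. There p38i was higher than pre-p38i in 9 members, against 24.8% of all tested genes. It was lower in 17, against 29.5% (54.3% in either direction). Day 1 had 5 higher and 5 lower members, beside 8.25% and 19.9% (28.2%), day 3 had 6 and 4, beside 10.7% and 31.4% (42.2%), and day 5 had 6 and 11, beside 16.3% and 31.1% (47.5%). The log2 fold changes of p38i over pre-p38i at day 7 were −4.19 ± 0.35 for Slc16a3, −1.06 ± 0.09 for Slc2a1 and −0.91 ± 0.04 for Ldha. Adm and P4ha2 were higher, with log2 fold changes of 1.85 ± 0.17 and 1.61 ± 0.14. Bnip3, which rose above the control in both windows, differed by −0.51 ± 0.20 between them (adjusted p = 0.033), a call that was lost with quantile normalization and without replicate 1 of either group (adjusted p up to 0.27). On day 3 Kdm3a had 46 and 45 in pre-p38i, 21 and 23 in p38i, and a fold change of −1.02 on the log2 scale. In this comparison the median over all tested genes was −0.16 on day 3 and −0.12 on day 5, and 0.05 and 0.02 with quantile normalization, which gave 10 higher and 4 lower, and 9 higher and 10 lower, on these days.

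Within each condition the change from day 1 to day 7 differed in size. In p38i 11 members rose and 16 fell, beside 32.8% and 22.0% of all tested genes (54.9%). In pre-p38i 11 rose and 10 fell, beside 36.1% and 27.5% (63.6%). Ldha fell by 0.87 on the log2 scale in p38i, by 0.63 in controls and by 0.12 in pre-p38i, and the last call was lost with quantile normalization (adjusted p = 0.84) and without replicate 2 of day 1 or of day 7 (up to 0.24). Tpi1 rose by 0.59 in pre-p38i and fell by 0.12 in p38i, where the call was lost with quantile normalization (0.98). Ddit4 rose in all 3 conditions, by 1.27 in controls, 1.93 in p38i and 2.09 in pre-p38i. For the difference of these changes from the control course, 6 members were higher and 6 lower in p38i, beside 14.1% and 7.55% of all tested genes (21.6%). In pre-p38i 12 were higher and 3 lower, beside 7.25% and 9.43% (16.7%).

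The neuronal enolase Eno2 and the mitochondrial protein Higd1a were called in none of the comparisons, and their values lay between 5 and 15 and between 16 and 35 over all 28 libraries. Pdk1 rose in all 3 courses, by 1.65 in controls, 1.56 in p38i and 1.87 in pre-p38i on the log2 scale, and was called in no comparison between conditions. Mxi1, a MYC antagonist, lay between 6 and 17 and was higher in pre-p38i than in controls on day 5, by 0.47, a call lost without any single library (adjusted p up to 0.20).

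Of the 31 tested members, fewer passed in each comparison when a call also needed a log2 fold change of 1 or more in size. In p38i-treated MEFs 4 did (Slc16a3, Ddit4, Vegfa and Ndrg1), where 2.21% of all tested genes did. In pre-p38i the counts against controls were 0, 1, 2 and 5 for days 1, 3, 5 and 7, beside 1.57%, 2.18%, 2.98% and 4.34% of all genes. In p38i they were 0, 1, 0 and 0, beside 1.89%, 4.47%, 4.82% and 5.19%. Between the inhibitor windows they were 0, 2, 2 and 5, beside 3.97%, 7.66%, 10.6% and 14.2%. From MEFs to day 1 the count was 9 (19.2%), and from day 1 to day 7 it was 8 in controls (18.5%), 8 in p38i (17.2%) and 12 in pre-p38i (23.6%). For the difference of that change from controls it was 0 in p38i (4.63%) and 2 in pre-p38i (4.01%), the latter being Slc16a3 and Adm.

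Beyond the members, 90 further genes of sugar handling, pyruvate and lactate fate, HIF regulation, the hypoxia response and the pentose phosphate branch were listed, of which 77 were tested. In pre-p38i on day 7, 9 rose and 15 fell, beside 15.4% and 14.5% of all tested genes. In p38i on day 7, 21 rose and 11 fell, beside 16.5% and 17.6%, and in p38i-treated MEFs 3 rose and 14 fell, beside 9.73% and 8.15%. Slc2a3, the glucose transporter GLUT3, averaged 67.0 in controls and 19.5 in p38i on day 7 (log2 fold change −1.73 ± 0.17, adjusted p = 2.4e-07). The transferrin receptor Tfrc averaged 26.0 and 8.5 in the same groups (−1.51 ± 0.15). Lox and Loxl2, enzymes that crosslink collagen, averaged 40.0 and 41.5 in controls and 13.5 and 17.5 in pre-p38i on day 7 (−1.50 ± 0.06 and −1.20 ± 0.07). Cited2, a protein that competes with HIF-1 for its coactivators, averaged 27.5 in controls and 11.0 in pre-p38i on day 7 (−1.24 ± 0.12), a call lost when only the 2 groups were fitted. In the control course between days 1 and 7, Ak4, a mitochondrial adenylate kinase, rose from 12.5 to 154, Pcx, pyruvate carboxylase, from 11.5 to 83.0, and Slc2a3 from 8.0 to 67.0.

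Sequence copies limit some values. In 12 members the table holds genes at least 95% identical over 200 bases or more, and in 5 of them a copy reached 1 in any library. For Gapdh the copies reached 8.63% of the joint sum, for Bnip3 5.26%, for Pgk1 4.13% and for Pgam1 1.38%. For Eno1 the copies Eno1b and Gm4735 took up to 63.9%, so its own value is uncertain. Eno1 and its copies together summed to 2194.5 ± 105 (SD, n = 2) in pre-p38i, 1759.5 ± 21.9 in controls and 1244 ± 35.4 in p38i on day 7, the same order as for Eno1 alone. A gene on the opposite strand with a value of at least 1 overlaps 8 members (Hk1, Pfkm, Pfkp, Tpi1, Gapdh, Aldoa, Adm and Ankrd37), and whether reads were counted by strand is not given in the sources used here.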

How the data were processed

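RNA-seq of 28 libraries was used, with groups and replicate numbers taken from the sample titles. Values deposited by the authors are a score per gene, whole numbers with library totals that fit TPM rounded down; the unit was inferred from these totals. TPM divides by gene length and library size. The submitters' processing notes name bcl2fastq, Bowtie2 2.2.5 and RSEM 1.3.0 and the builds mm10 and hg38. Labels and paper differ on library kit, RNA extraction and MEF medium. Because the values are not counts, log2(value + 1) was fitted with limma 3.58.1 (R 4.3.3; eBayes with a trend). The fit held all 14 groups and the 13230 genes averaging 1 or more, without a replicate block, with Benjamini-Hochberg adjustment over all genes tested. The script was tested on simulated data. Depth is unknown, so no counting intervals were made.

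Members and lists were chosen with earlier results of these data known. Values per library were printed for members called in a comparison with control, untreated MEF or pre-p38i, where the log2 fold change was 1 or more in size, the groups averaged 5 or more and did not overlap, and for others most often called. Of the other pathway genes up to 8 with the largest fold changes by the same rule were to be named, and 1 of them is not reported here. Alternatives were no filter, a pseudocount of 0.1, a higher filter (mean of 5), quantile normalization, a replicate block, only the groups compared, a minimum log2 fold change of 1, each library left out, and summed near-identical copies (BLAST 2.17.0+; chosen after seeing the data). Gene identifiers matched GENCODE M21 in 99.6% of cases. Promoter windows came from RefSeq (GRCm38.p6). Plots were drawn with matplotlib 3.10.9.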

Additional observations from a re-analysis of the deposited data

Results flagged for a closer look

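The change from day 1 to day 7 was compared between each inhibitor window and the control course with interaction terms of the same limma fit. For p38i minus control, 12 members were called (6 higher, 6 lower, against 21.6% of all tested genes), and for pre-p38i minus control 15 were called (12 higher, 3 lower, against 16.7%). Slc16a3 had the largest such term among the members in pre-p38i, at 4.68 ± 0.49 (adjusted p = 1.8e-06), and it fell in the control course and rose in pre-p38i. For Adm the term was −1.41 ± 0.25 (adjusted p = 0.00048), with a larger fall in pre-p38i. Both p38i and pre-p38i were compared with the same control libraries. Groups of 2 libraries were too small to look for single libraries far from the others.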

How the results depend on the processing

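The tally here covers the 52 called fold changes of members that met the rule for printing values. That rule needed a size of 1 or more on the log2 scale, groups that averaged 5 or more, and no overlap. Smaller changes are left out, and several of them lost calls as given above. Large changes at low values are left out as well, such as Slc16a3 in pre-p38i on days 3 and 5, whose calls were lost without single libraries. The tally is therefore of a set screened for clear differences. None of the 52 reversed: of 572 values under the alternatives, 562 stayed on the same side of the threshold and 10 lost their call, in 7 of the 52. Besides those given above, P4ha2 in pre-p38i on day 5 lost its call with only the groups compared (adjusted p = 0.11), and Aldoc between the inhibitor windows on day 7 with a pseudocount of 0.1 (0.084). Fitting only the groups compared leaves 2 residual degrees of freedom per comparison and moved the members called from 11 to 6 in p38i-treated MEFs, from 3 to 0, 9 to 0, 10 to 3 and 20 to 11 in pre-p38i on days 1, 3, 5 and 7, from 3 to 0 and 11 to 0 in p38i on days 3 and 5, and from 10 to 4 and 17 to 9 between the windows on days 1 and 5. A minimum log2 fold change of 1 left 4 members in p38i-treated MEFs, 0, 1, 2 and 5 in pre-p38i on days 1, 3, 5 and 7, 0, 1, 0 and 0 for the same days of p38i, 0, 2, 2 and 5 between the windows, 9 from MEFs to day 1, 8, 8 and 12 from day 1 to day 7 in control, p38i and pre-p38i, and 0 and 2 for the interaction terms of p38i and pre-p38i. Leaving out 1 library gave 0 to 2 members in pre-p38i on day 1, 3 to 6 on day 3, 5 to 6 on day 5 and 17 to 20 on day 7, 1 to 2 in p38i on day 1, 2 to 4 on day 3, 6 to 9 on day 5 and 9 to 12 on day 7, 9 to 10 in p38i-treated MEFs, and 5 to 8 between the windows on day 1; in these fits the lone library of a group is assumed to vary like the others. The share of all tested genes called was not computed for the alternative fits. These counts therefore cannot show whether the members lost calls more often than other genes. The cause of these losses, other than the smaller fits, was not tested.

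Same-numbered libraries of a time point did not deviate together (correlations between −0.016 and 0.051 over 13 pairs of groups), so no shared effect of the number was seen. Whether such libraries shared a culture or batch cannot be told from this. With the replicate number as a block, the members called on day 7 numbered 20 for pre-p38i and 13 for p38i, against 20 and 12 without it, and no count of members moved by over 1.5 times. Summing near-identical copies, an alternative chosen after seeing the data, called Eno1 in p38i-treated MEFs (adjusted p = 0.049) and Gapdh in p38i on day 7 (0.022). Values rounded down to whole numbers limit what can be said of Slc16a3, Adm, Vegfa and Aldoc where they stand at a few units.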
